A study of Homo sapiens with 6 samples.

Results

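The E2F and RB family was examined as the 10 gene symbols E2F1, E2F2, E2F3, E2F4, E2F5, E2F7, E2F8, RB1, RBL1 and RBL2. All 10 were listed among the 54259 gene symbols of the count table. The members were taken by symbol, as a gene family, with earlier results of these data known. RNA-Sequence was performed on MDA-MB-231 cells, an established human breast cancer line of mesenchymal, triple-negative type. There were 3 libraries of brachyury-knockdown cells (MDA-MB-231 shBry), in which a hairpin RNA targets brachyury, a T-box transcription factor, and there were 3 of control cells (MDA-MB-231 shNC) with a control hairpin. Both groups therefore carry a hairpin. The sequence of the hairpins, and whether each line is 1 clone, are not given in the sources used here.

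E2F proteins are transcription factors that bind, mostly as dimers with a DP protein, to promoters of genes for DNA synthesis and cell division. E2F1, E2F2 and E2F3 are known as activators, E2F4 and E2F5 as repressors that work with pocket proteins, and E2F7 and E2F8 as atypical repressors that bind DNA without a DP partner. The pocket proteins RB (gene RB1), p107 (RBL1) and p130 (RBL2) hold E2F factors inactive until cyclin-dependent kinases phosphorylate them, and p130 is typical of resting cells. In breast cancer cells this switch controls the passage from G1 to S phase.

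In shBry cells the family changed in both directions. The activator gene E2F1 and the atypical repressor gene E2F8 fell to less than the level of any control library, the repressor gene E2F5 and the activator gene E2F3 rose, and the pocket protein gene RBL2 fell. E2F4, the most abundant member per length, was slightly higher, E2F7 and RB1 did not pass the test, and E2F2 was barely detected.

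Depth was similar in all libraries, between 19319411 and 22985371 counts in shBry and between 19684251 and 21718591 in shNC. Brachyury, listed under its older symbol T, had 0 counts in all 6 libraries, the shNC controls included. The knockdown could thus not be checked on its target. At this depth 0 counts leave room for 0.155 CPM in the smallest library, by counting error only. The study describes brachyury as constitutively overexpressed in this line, which the control counts do not show. Whether the 2 groups differed in brachyury is therefore not known from these libraries. All 5 markers of MDA-MB-231 cells were above 1 CPM, with a summed level from 5010 to 5220 CPM in shBry and from 5430 to 5650 CPM in shNC, most of it VIM. Of these markers CAV1 was called lower (-1.11 on the log2 scale). Under the fold change limit of 1.5, VIM was lower (-0.27, edgeR adjusted p = 0.0085), and CD44 (0.34) and AXL (0.33) were higher. EGFR (0.06) did not pass the test. Because the study's deposited description names pericardial RNA, markers of heart and pericardium were examined. The 5 cardiac muscle markers summed to at most 0.0538 CPM in shBry and 0.183 CPM in shNC, with MYH6, MYH7 and MYL7 at 0. The 4 mesothelial markers summed to 44.9 to 50.6 CPM in shBry and 35.4 to 39 CPM in shNC, mostly from MSLN, with UPK3B and WT1 under 1 CPM and CALB2 at 11.1 CPM in shNC replicate 3. The 4 leukocyte markers summed to at most 0.229 CPM, with PTPRC and TYROBP at 0. The 5 luminal epithelial markers summed to 216 to 263 CPM in shBry and to 839 to 923 CPM in shNC, nearly all of it KRT8, which fell, with ESR1, PGR and CDH1 under 0.1 CPM in every library. EPCAM, of the same list, rose from 1.55 ± 0.513 to 4.28 ± 0.681 CPM (1.47 on the log2 scale, edgeR adjusted p = 0.00034). The 4 lung epithelial markers summed to 18.6 to 22.8 CPM in shBry and to 36 to 43.1 CPM in shNC, with SFTPB and SFTPC at 0. Most of this was NKX2-1, which fell from 35.9 ± 3.22 to 17.4 ± 2.17 CPM (-1.05 on the log2 scale, edgeR adjusted p = 7.5e-06). NAPSA had 3.91 ± 0.646 CPM in shNC and 3.72 ± 0.316 CPM in shBry. The part of the KRT8, EPCAM, CAV1 and NKX2-1 differences in the results below was not tested. In bulk RNA, fewer cells that express a gene and less RNA per cell cannot be told apart, and this holds for every gene with cell-cycle-dependent expression named here.

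Promoter sequence was examined because several E2F genes are known to be under control of E2F sites themselves. RefSeq promoter windows on GRCh38.p14, each from 250 bases before to 50 bases after a transcript start, were found for 8 of the 10 members. E2F5 and E2F8 had no window. The only window of RB1 started 172724 bases inside the gene as GENCODE annotates it, so it does not bear on the main RB1 start and is left out of the map of matches. The E2F site was searched as TTTCCCGC, TTTCGCGC, TTTGCCGC and TTTGGCGC on both strands. These letters were found in 3.31% of all 35116 windows. They occurred in the windows of E2F1, E2F2, RBL1 and the upstream start of E2F3. The stretches of 30 bases that hold them are shown because they place E2F1, which fell, and E2F3, which rose, beside RBL1 and E2F2. RBL1 was lower by less than the fold change limit (-0.56 on the log2 scale, edgeR adjusted p = 0.0019). E2F2 had too few counts to be tested. Each stretch is written 5′ to 3′ on the strand of the gene, with the matched site in capitals.
E2F1, chr20:33686393-33686422, minus strand: tttcGCGGCAAAaaggaTTTGGCGCgtaaa
RBL1, chr20:37096000-37096029, minus strand: gcagatTTTCGCGCgcTTTGGCGCaggtgg
E2F2, chr1:23531257-23531286, minus strand: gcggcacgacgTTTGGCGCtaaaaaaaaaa
E2F3, chr6:20401815-20401844, plus strand: ttgaaaagccgGCGGGAAAtccgagtttcg

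E2F1 and RBL1 each held 2 sites close to the start, the first at 33 and 26 bases before it. E2F2 and E2F3 held 1 site each, starting 42 and 53 bases before it. The windows of E2F4, E2F7, the second start of E2F3 and both starts of RBL2 held none of these letters. A match is a description of the letters and not of binding, which was not measured here. For E2F3, the first window lies at the start of the E2F3a form and the second, 1708 bases inside the gene, near the start of the E2F3b form, which gene counts cannot tell apart.

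CCAAT boxes, the letters bound by NF-Y, were found in 34.6% of all windows on either strand. E2F1 held 3 of them and E2F7 held 4. The upstream stretches of both genes are shown to compare an E2F gene that fell with one that did not pass the test, with CCAAT boxes on either strand in capitals. The fourth box of E2F7 lies before the stretch shown.
E2F1, chr20:33686421-33686585, minus strand: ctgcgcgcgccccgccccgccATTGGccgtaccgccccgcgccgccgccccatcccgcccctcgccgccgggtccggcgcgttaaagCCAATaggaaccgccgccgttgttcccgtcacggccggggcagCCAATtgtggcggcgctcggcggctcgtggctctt
E2F7, chr12:77065605-77065769, minus strand: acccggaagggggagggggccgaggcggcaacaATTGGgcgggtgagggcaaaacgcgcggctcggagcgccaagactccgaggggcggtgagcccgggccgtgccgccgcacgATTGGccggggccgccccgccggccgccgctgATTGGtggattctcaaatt

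E2F1 thus held CCAAT boxes and E2F sites in 1 window, whereas E2F7 held CCAAT boxes without these E2F letters. The first window of E2F3 held 4 CCAAT boxes and also the letters TTTGAA, 1 of the forms searched for the cell cycle genes homology region (CHR), an element of late cell cycle promoters. The CHR was searched as TTTGAA and TTCGAA on both strands, which occurred in 16.4% of all windows, and RBL2 had a match 24 bases after its first start. The T-box motif was searched as TCACACCT on both strands and occurred in 0.98% of all windows. It was in none of the windows of the 8 members, which says only that these letters are not in these windows.

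**Figure D1:**
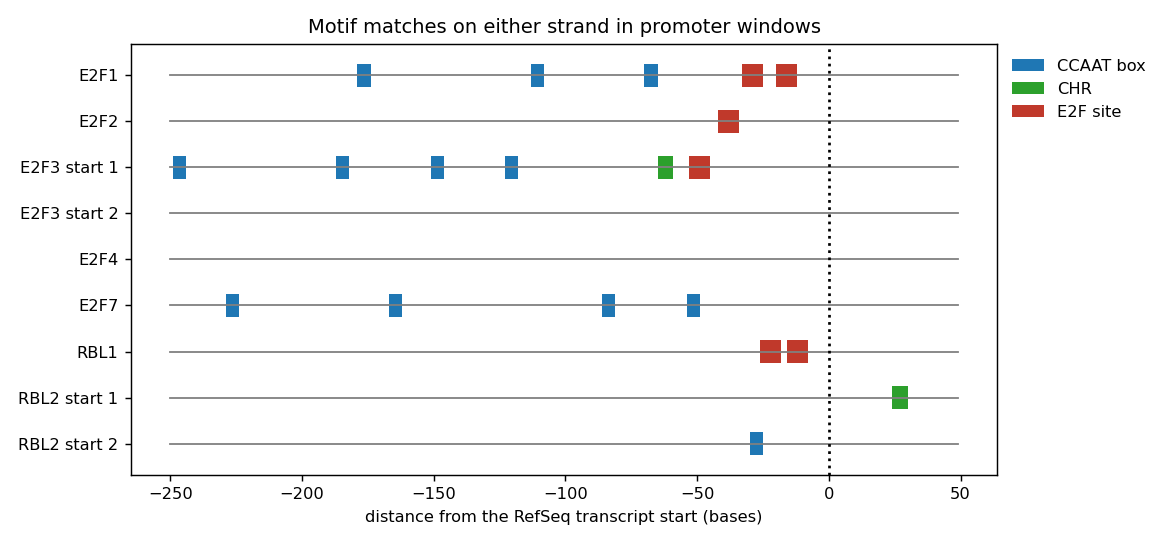
Positions of motif matches in the promoter windows of the members, by distance in bases from the RefSeq transcript start (dotted line). Each grey line is a window of 300 bases and each coloured block a match on either strand. E2F1 and RBL1 carry 2 E2F sites each within 33 bases of the start, and E2F4 carries no match.

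Expression was compared between shBry and shNC with edgeR's quasi-likelihood test over all 15277 genes with enough counts. Genes were called when p, adjusted by Benjamini-Hochberg over all tested genes, was below 0.05 and the fold change exceeded 1.5, which is 0.585 on the log2 scale. CPM are counts scaled to library size with TMM factors, and every fold change is that of shBry relative to shNC. The filter kept 9 of the 10 members, and 5 of these were called, 2 higher and 3 lower in shBry. Among all tested genes 32.4% were called by this rule, 17.1% higher and 15.2% lower. Without the fold change limit, 7 members had an adjusted p below 0.05, against 53.3% of all tested genes, with 3 members higher (28% of all genes) and 4 lower (25.3% of all genes). In 7 members the 3 shBry values did not overlap the 3 shNC values, against 59.5% of all tested genes. The counts for the family are therefore set in a comparison where many genes differed. The median log2 fold change was -0.15 over the 9 members and 0.03 over all tested genes.

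**Figure D2:**
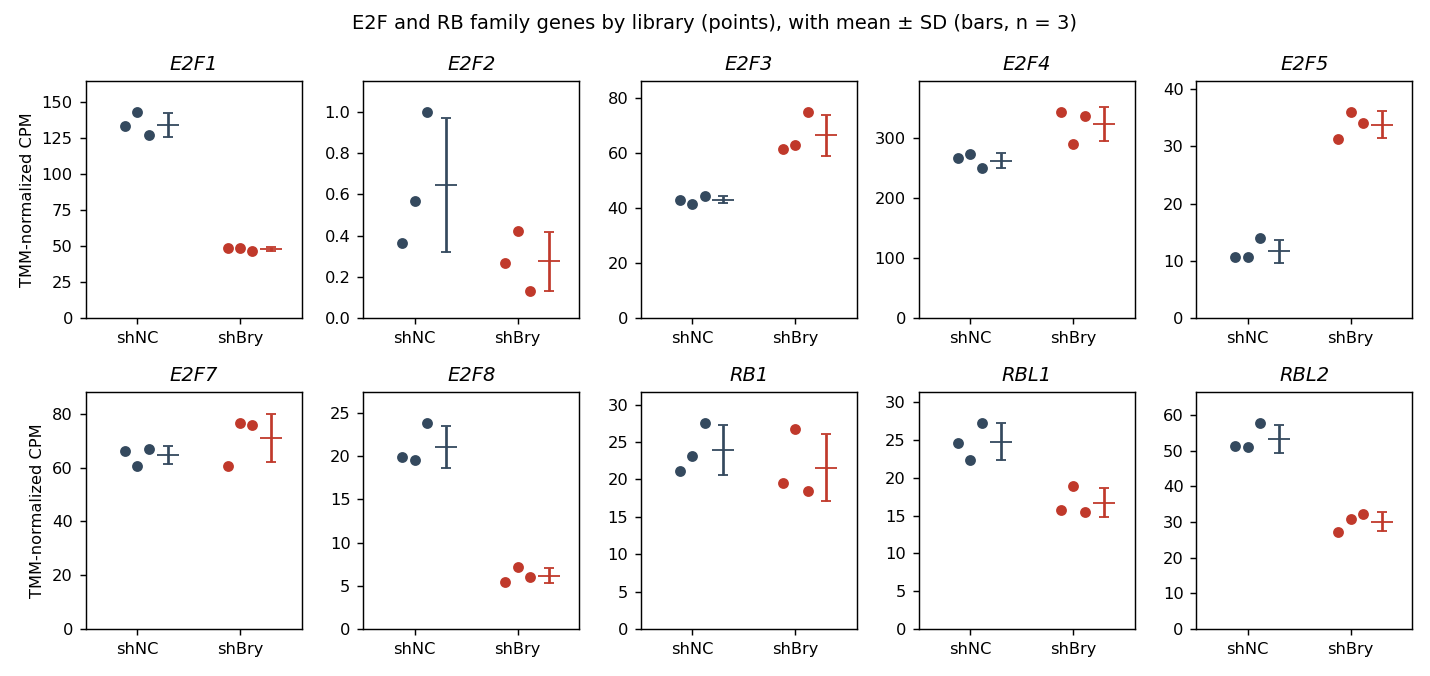
TMM-normalized CPM of each member in the 6 libraries (points), with the mean and SD of each group beside them (n = 3). Each panel has its own axis from 0. E2F1, E2F8, RBL1 and RBL2 are lower in every shBry library than in any shNC library, E2F3, E2F4 and E2F5 are higher, and E2F2, E2F7 and RB1 overlap.

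Among the activators, E2F1, the best-known inducer of S-phase genes, changed most. On GRCh38, E2F1 spans positions 33675683 to 33686404 of chromosome 20, minus strand. It had 133, 143 and 127 CPM in shNC replicates 1, 2 and 3 and 48.6, 48.6 and 46.4 CPM in shBry replicates 1, 2 and 3. The shBry libraries were close to each other and all far below the lowest control. The level fell from 134 ± 8.22 to 47.8 ± 1.28 CPM (SD, n = 3), or -1.49 on the log2 scale (standard error, SE, 0.08, edgeR adjusted p = 4.9e-09), 2.81-fold lower. When any 1 library was omitted, the value lay between -1.55 and -1.46. No other annotated gene overlaps its exons, and none of its stretches of 50 bases occurs in transcripts of other genes.

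E2F3, the other expressed activator gene, moved the opposite way. It lies on chromosome 6 from 20401906 to 20493715 on the plus strand. It had 42.8, 41.6 and 44.2 CPM in shNC and 61.3, 62.8 and 74.8 CPM in shBry. The groups did not overlap, and shBry replicate 3 was the highest library. The mean rose from 42.9 ± 1.29 to 66.3 ± 7.4 CPM, or 0.63 on the log2 scale (SE 0.10, edgeR adjusted p = 9.4e-05), just past the fold change limit. Without shBry replicate 3 the log2 fold change was 0.53 (edgeR adjusted p = 0.0012), under that limit, and 4 members were then called. The ratio of E2F3 to E2F1, both per kilobase, was 0.155 ± 0.0141 in shNC and 0.673 ± 0.0943 in shBry, and it did not overlap between the groups.

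E2F2, the third activator gene, on chromosome 1 from 23506430 to 23531220, had only 8, 12 and 20 counts in shNC and 5, 10 and 3 counts in shBry. These counts overlap between the groups and were too few for the expression filter. With all detected genes kept, its log2 fold change was -1.21 (SE 0.57, edgeR adjusted p = 0.087). A difference was thus not detectable at this depth with all 6 libraries.

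E2F4 encodes a repressor that occupies promoters together with p107 or p130. It lies on chromosome 16 from 67192169 to 67198918 on the plus strand and had the highest level of the family. It had 267, 274 and 250 CPM in shNC and 344, 291 and 338 CPM in shBry. Every shBry library was above every control, but shBry replicate 2 was close to the highest of them. The mean was 263 ± 12.4 CPM in shNC and 324 ± 29.1 CPM in shBry, or 0.30 on the log2 scale (SE 0.08, edgeR adjusted p = 0.0084). This passed the limit on p and not that on fold change, so E2F4 was not called.

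E2F5, which encodes the other repressor that works with p107 and p130, was the member with the largest rise. It lies on chromosome 8. It had 10.6, 10.6 and 14 CPM in shNC and 31.2, 36 and 34.1 CPM in shBry. The lowest shBry library had more than the highest control by a wide margin. The mean rose from 11.7 ± 1.98 to 33.8 ± 2.4 CPM, or 1.53 on the log2 scale (SE 0.13, edgeR adjusted p = 4.2e-07), 2.88-fold higher. Genes on the opposite strand overlap 18.6% of the exon bases of E2F5, 969 bases of them in C8orf59, and whether reads were counted by strand is not given in the sources used here. C8orf59 itself had 25.8 ± 6.16 CPM in shNC and 20.5 ± 3.99 CPM in shBry, with overlapping groups and a log2 fold change of -0.32 (edgeR adjusted p = 0.14). The part of shared reads in the E2F5 value was not tested.

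The atypical repressor genes E2F7 and E2F8, whose proteins are known to act together on E2F1 and other S-phase genes, were not called alike. The difference between them was not tested. E2F8, on chromosome 11 from 19224063 to 19241620 on the minus strand, had 19.9, 19.6 and 23.9 CPM in shNC and 5.38, 7.17 and 5.99 CPM in shBry. Every shBry value was below every control value. The mean fell from 21.1 ± 2.43 to 6.18 ± 0.906 CPM, or -1.77 on the log2 scale (SE 0.15, edgeR adjusted p = 2.9e-07), 3.41-fold lower, the largest fall among the 9 tested members. E2F7, on chromosome 12 from 77021247 to 77065580 on the minus strand, had 66.4, 60.8 and 66.9 CPM in shNC and 60.6, 76.8 and 75.8 CPM in shBry. The groups overlapped, since shBry replicate 1 was at the level of the controls. Its log2 fold change of 0.14 (SE 0.10, edgeR adjusted p = 0.27) had a 95% interval from -0.08 to 0.35, which lies inside the fold change limit. The ratio of E2F8 to E2F7, both per kilobase, was 0.497 ± 0.0447 in shNC and 0.133 ± 0.0111 in shBry.

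Of the 3 pocket protein genes, RBL2 was called. RBL2 encodes p130 and lies on chromosome 16 from 53433977 to 53491649 on the plus strand. It had 51.4, 50.9 and 57.8 CPM in shNC and 27.1, 30.7 and 32.3 CPM in shBry. No shBry library reached the lowest control. The mean fell from 53.3 ± 3.87 to 30 ± 2.65 CPM, or -0.83 on the log2 scale (SE 0.10, edgeR adjusted p = 1.2e-05), 1.77-fold lower. Genes on the opposite strand overlap 18.2% of its exon bases, 721 bases of them in AC007342.6 and 610 in AKTIP. AKTIP rose from 12.1 ± 0.472 to 20.7 ± 2.12 CPM (0.77 on the log2 scale, edgeR adjusted p = 0.00014). RBL2 and AKTIP thus changed in opposite directions, and the part of shared reads in either value was not tested.

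RBL1, which encodes p107, lies on chromosome 20 from 36996349 to 37095995 on the minus strand. It had 24.6, 22.4 and 27.3 CPM in shNC and 15.8, 18.9 and 15.5 CPM in shBry. The groups did not overlap, and shBry replicate 2 came closest to the controls. The mean was 24.8 ± 2.5 CPM in shNC and 16.7 ± 1.91 CPM in shBry, or -0.56 on the log2 scale (SE 0.13, edgeR adjusted p = 0.0019), just short of the fold change limit. Without shBry replicate 2 it was -0.68 (edgeR adjusted p = 0.00022) and without shNC replicate 2 it was -0.65 (edgeR adjusted p = 0.0031), past the limit. E2F2 was also called without shBry replicate 2, with a log2 fold change of -1.69 (edgeR adjusted p = 0.033), so that 7 members were called in that fit.

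RB1, the retinoblastoma gene, lies on chromosome 13 from 48303726 to 48599436 on the plus strand. It had 21.1, 23.1 and 27.6 CPM in shNC and 19.5, 26.8 and 18.5 CPM in shBry. The groups overlapped, with shBry replicate 2 above 2 of the controls. The log2 fold change was -0.15 (SE 0.15, edgeR adjusted p = 0.44), with a 95% interval from -0.47 to 0.18. Without shBry replicate 2 it was -0.35 (edgeR adjusted p = 0.033), still under the fold change limit. The same library was the highest of its group for RB1, RBL1, E2F2, E2F5, E2F7 and E2F8 and the lowest for E2F4.

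**Figure D3:**
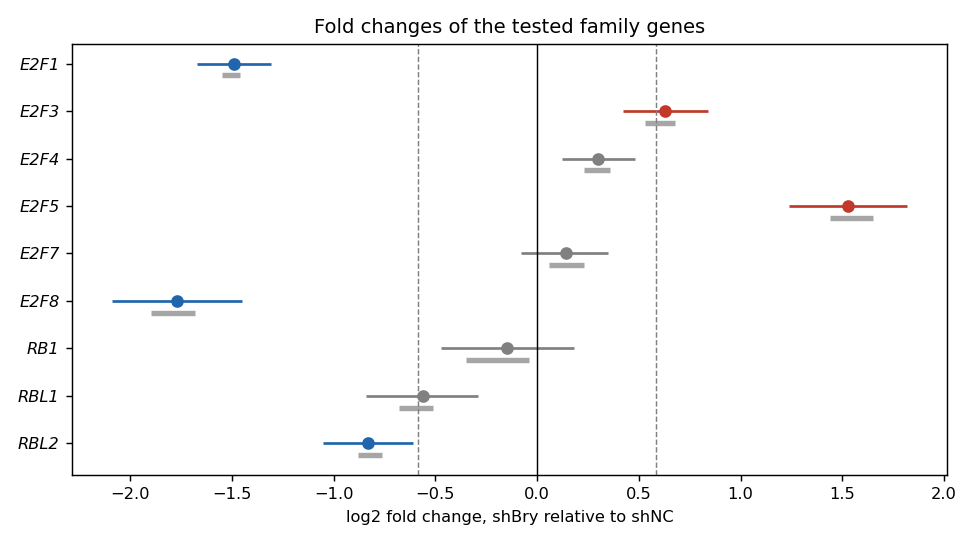
Log2 fold changes of the 9 tested members (points) with 95% intervals (lines). Red is called higher, blue called lower and grey not called, dashed lines mark the fold change limit of 1.5, and the grey bars below the points span 12 alternative fits. E2F3 at 0.63 and RBL1 at -0.56 lie next to the limit, and E2F1, E2F8 and E2F5 lie far outside it.

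Levels were compared between members per length, as CPM divided by the annotated exon length in kilobases (RPKM). In shNC the order was E2F4 (73.6 ± 3.46 RPKM), E2F1 (53.6 ± 3.28), E2F7 (10.3 ± 0.533), E2F3 (8.31 ± 0.25), RBL2 (7.29 ± 0.528), E2F8 (5.11 ± 0.586), RBL1 (4.16 ± 0.419), RB1 (3.71 ± 0.519), E2F5 (1.98 ± 0.335) and E2F2 (0.118 ± 0.0595). Only the neighbours RBL1 and RB1 overlapped in their values. When the longest transcript was taken as the length, RBL2 stood above E2F3 and RB1 above RBL1, so these orders depend on the gene model. In shBry the order was E2F4 (90.6 ± 8.14 RPKM), E2F1 (19.1 ± 0.51), E2F3 (12.8 ± 1.43), E2F7 (11.3 ± 1.44), E2F5 (5.7 ± 0.406), RBL2 (4.1 ± 0.362), RB1 (3.35 ± 0.698), RBL1 (2.81 ± 0.321), E2F8 (1.49 ± 0.219) and E2F2 (0.0503 ± 0.0264). Here E2F3 and E2F7 overlapped, as did RBL2 with RB1 and RB1 with RBL1. E2F5 thus moved from place 9 to place 5, and E2F8 from place 6 to place 9.

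The summed level of the 7 E2F genes was 153 ± 5.04 RPKM in shNC and 141 ± 7.27 RPKM in shBry. E2F1 made up 35% ± 1.02 of the E2F level in shNC and 13.6% ± 0.988 in shBry. E2F4 made up 48.1% ± 0.794 and 64.1% ± 2.88. The activators together made up 40.6% ± 0.693 in shNC and 22.7% ± 1.01 in shBry, with no overlap between libraries. The repressors E2F4 and E2F5 together made up 49.4% ± 0.541 and 68.2% ± 2.43, and the atypical E2F7 and E2F8 10.1% ± 0.991 and 9.09% ± 1.44. Within each library, E2F1 had 0.729 ± 0.0172 of the E2F4 level in shNC and 0.212 ± 0.0231 in shBry, a ratio that no library scaling can change.

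The 3 pocket protein genes summed to 15.2 ± 1.4 RPKM in shNC and 10.3 ± 1.12 RPKM in shBry. RBL2 made up 48.1% ± 0.914 of this sum in shNC and 40.2% ± 4.19 in shBry. RB1 made up 24.4% ± 1.52 and 32.4% ± 3.51, and RBL1 27.4% ± 1.18 and 27.4% ± 0.981. The ratio of RBL2 to RB1 was between 1.84 and 2.14 in shNC and between 1.01 and 1.54 in shBry. These sums and shares are descriptions of RNA and were not tested.

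**Figure D4:**
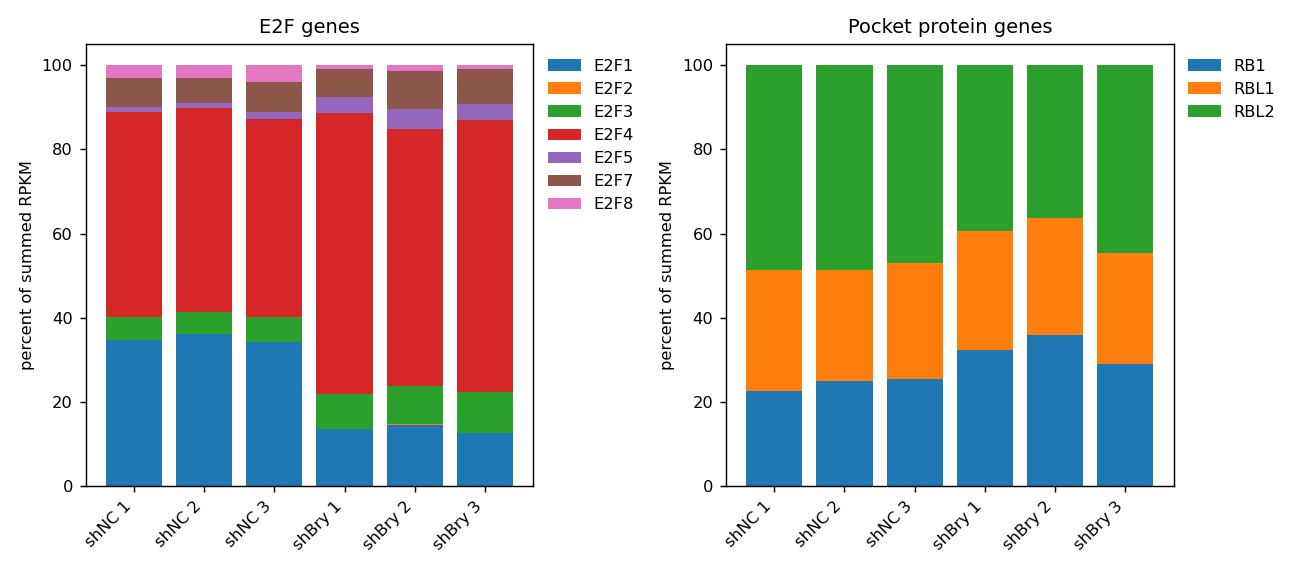
Share of each gene in the summed RPKM of the 7 E2F genes (left) and of the 3 pocket protein genes (right), in percent, with 1 bar per library. The E2F1 share is 34.2% to 36.2% in the shNC libraries and 12.6% to 14.6% in the shBry libraries.

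The partners of the family were read from a list of 4 genes, 3 of them tested. The DP genes TFDP1 and TFDP2, whose proteins pair with E2F1 to E2F6, were both called lower. They made up 66.7% of the tested genes of this list, against 15.2% called lower among all tested genes. TFDP1 fell from 221 ± 7.63 to 125 ± 12.9 CPM (-0.83 on the log2 scale, edgeR adjusted p = 2.7e-06), and TFDP2 from 65.4 ± 1.52 to 40.9 ± 2.32 CPM (-0.68 on the log2 scale, edgeR adjusted p = 1.8e-05). E2F6, a repressor that does not bind pocket proteins, had 15 ± 1.33 CPM in shNC and 15.4 ± 1.3 CPM in shBry, with a log2 fold change of 0.04 and a 95% interval from -0.24 to 0.31. TFDP3 was listed at 0 counts in all libraries.

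The MuvB core joins p107 or p130 and E2F4 or E2F5 in the DREAM repressor of resting cells, and joins the activators MYBL2 and FOXM1 later in the cycle. Of 8 genes of this list, 3 were called lower and 1 higher (50% called, against 32.4% of all tested genes), with a median log2 fold change of -0.26. FOXM1 fell from 274 ± 6.41 to 88.9 ± 3.1 CPM (-1.62 on the log2 scale, edgeR adjusted p = 8.1e-10) and MYBL2 from 507 ± 6.42 to 256 ± 18 CPM (-0.98 on the log2 scale, edgeR adjusted p = 1.5e-07). RBBP4, a histone-binding subunit shared with other complexes, had a log2 fold change of -0.99. DYRK1A, the kinase known to start DREAM assembly, was the gene called higher, with 19 ± 0.745 CPM in shNC and 31.1 ± 4.92 CPM in shBry (0.72 on the log2 scale, edgeR adjusted p = 3e-04). LIN9, LIN37 and LIN54 did not pass the test, and LIN52 at -0.52 passed on p alone.

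The kinases that phosphorylate pocket proteins and their inhibitors also went both ways, with 4 of 12 tested genes called lower (33.3%, against 15.2% of all tested genes), 3 called higher (against 17.1% of all tested genes) and a median of -0.08. The inhibitor gene CDKN1A (p21) had a log2 fold change of 2.13 and CDKN2C (p18) one of -3.30. CCND2, a cyclin D gene, rose from 45.9 ± 1.3 to 120 ± 2.59 CPM (1.39 on the log2 scale, edgeR adjusted p = 6.4e-09), and its partner CDK6 rose from 22.5 ± 2.25 to 50.2 ± 5.64 CPM (1.16 on the log2 scale, edgeR adjusted p = 1.4e-06). On the cyclin E side, CDK2 at -0.81 and CCNE2 at -1.17 were called lower. CDK4, CCND1 and CCNE1 did not pass the test, with log2 fold changes of 0.09, 0.14 and -0.25. CDKN2A and CDKN2B, a locus known to be deleted in MDA-MB-231 cells, were listed at 0 counts in all 6 libraries.

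Of 11 tested corepressors that pocket proteins are known to recruit, 3 were called, all lower. This share of 27.3% stands against 15.2% called lower, and 32.4% called in either direction, among all tested genes. The list median of 0.03 was that of all tested genes. The called genes were HDAC1 (log2 fold change -0.77), SUV39H1 (-1.04) and SMARCA4 (-0.60). SIN3A and SIN3B had an adjusted p below 0.05 and were higher, under the fold change limit, at 0.30 and 0.27. SMARCA2 was lower under that limit, at -0.40 (edgeR adjusted p = 0.0088). EHMT2 had at most 1 count in any library and was not tested. Of 4 genes whose products direct the breakdown of E2F or pocket proteins, 2 were called, both lower (50%, against 15.2% of all tested genes). SKP2, known to target p130, fell from 92.7 ± 10.5 to 24.1 ± 2.56 CPM (-1.94 on the log2 scale, edgeR adjusted p = 5.4e-09), and CCNF, which encodes cyclin F, had a log2 fold change of -1.37.

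Genes that E2F factors are known to activate at the G1/S boundary were nearly all lower. Of 33 tested, 29 (87.9%) were called lower against 15.2% of all tested genes, and the median log2 fold change was -1.26 against 0.03. This list, like the others, was chosen with earlier results of these data known. MCM5 (-2.49), GINS2 (-1.88) and MCM4 (-1.69), of the replicative helicase, had the smallest adjusted p. Genes that were not called included CDC6 at 0.01, CHEK1 at 0.11 and CDC25A at 0.30, of which CDC25A was higher at an adjusted p of 0.013 (edgeR). No gene was called higher, and none was by DESeq2 or limma-voom either, while 1 had an unadjusted p below 0.05 in that direction. Of 28 listed genes with a promoter window, 19 (67.9%) held an E2F site, against 6.59% of 10516 tested genes with a window. Because the list was chosen as known E2F targets, this contrast is no result of the expression data. E2F sites were in the windows of 7.9% of genes called lower, 4.18% of genes called higher and 6.87% of genes not called. Of tested genes with an E2F site, 18.6% were called lower and 10.4% higher. The shares of all tested genes, 15.2% and 17.1%, include genes without a window. Among the 10516 tested genes with a window, 1633 were called lower and 1724 higher. The letters alone thus occurred in genes of both directions, as in E2F1 and E2F3. The share with a site among genes called higher, 4.18%, was below the 6.59% of tested genes with a window.

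Late cell cycle genes with CHR elements, which DREAM and later MYBL2 and FOXM1 are known to bind, followed the same direction. Of 24 tested, 19 (79.2%) were called lower, against 15.2% of all tested genes, and the median log2 fold change was -0.93. KIF20A (-2.75), PLK1 (-1.70) and NUSAP1 (-1.76), of the mitotic spindle, had the smallest adjusted p. Of 20 listed genes with a window, 14 (70%) held CHR letters, against 15.3% of tested genes with a window. The list was chosen as genes known to carry these elements, so this contrast is no result of the expression data. No gene was called higher by edgeR, DESeq2 or limma-voom, while 1 had an unadjusted p below 0.05 in that direction. This gene, UBE2C, had a log2 fold change of 0.32 (edgeR adjusted p = 0.007). The list of death genes that E2F1 is known to induce went both ways, with 3 of 7 tested genes called higher and 2 called lower (71.4% called, against 32.4% of all tested genes). PMAIP1 (log2 fold change 2.11) and BBC3 (0.84) were among the higher ones, and TP73 (-1.29) and APAF1 (-0.90) were lower, while E2F1 itself was lower. The genes of these lists that were not called, CDK2 and CCNE2 were named after their values were seen.

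**Figure D5:**
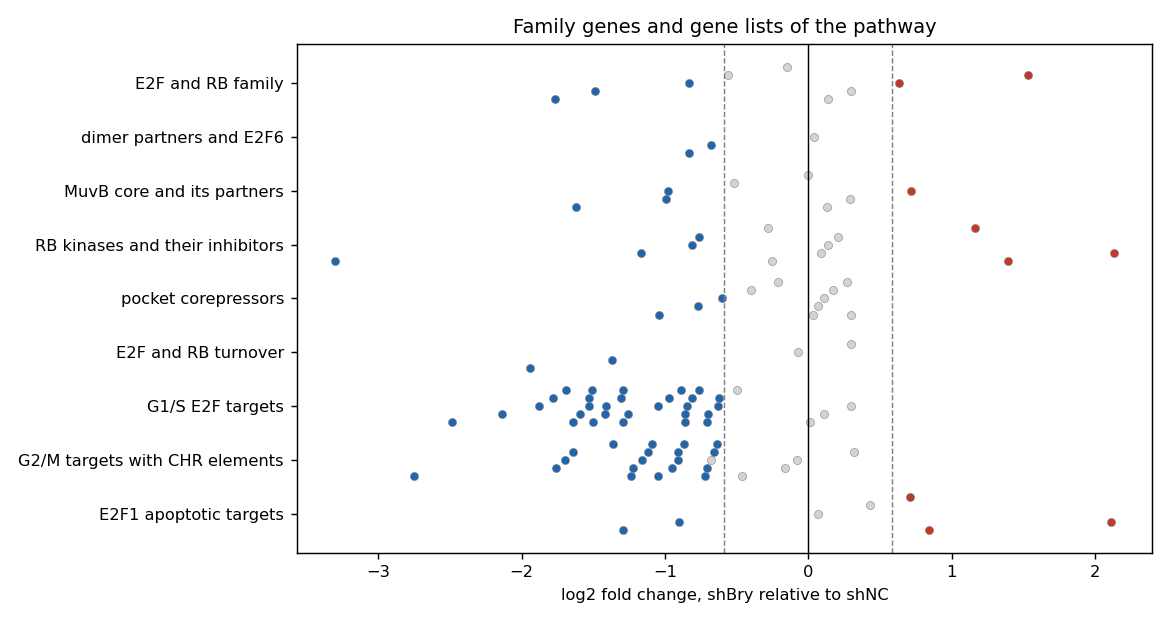
Log2 fold change of each tested gene of the family and of 8 gene lists of its pathway, with 1 point per gene (red called higher, blue called lower, grey not called) and dashed lines at the fold change limit. The vertical spread within a list has no meaning. The G1/S and G2/M targets lie mostly left of the lower limit, and the family and the RB kinases lie on both sides.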

How the data were processed

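RNA was sequenced from 3 libraries each of shBry and shNC cells of the MDA-MB-231 line, and the authors deposited raw, unnormalized counts of reads for each gene symbol. Their processing notes name HISAT2 2.0.4, HTSeq and GRCh38; the annotation and strand setting are not given in the sources used here. Libraries held 19319411 to 22985371 counts. After filterByExpr (minimum count 10) and TMM scaling, groups were compared with edgeR 4.0.16 (quasi-likelihood, R 4.3.3). The fits were also run on simulated counts with a fixed dispersion and far fewer changed genes than were called here. That run does not cover the spread between these libraries. The standard error is the log2 fold change divided by the square root of F. DESeq2 1.42.0, limma 3.58.1 (voom) and other filters and limits were alternatives. The study's methods speak of independent repeats in general, but no source used here says that these libraries came from separate cultures, so p-values measure only the spread between these samples, which may be technical; replicates of 1 group differed by more than sampling noise (chi-square per degree of freedom from 4.94 to 16.7). Locations and exon lengths came from GENCODE 29, matched by symbol for all members, and promoter windows from RefSeq (GRCh38.p14). The members and gene lists were chosen with earlier results of these data known. Named genes were all members, genes that overlap them, brachyury, the 3 smallest adjusted p of each list, genes called against most of their list, and the 3 genes nearest to E2F1 and to RB1. Some single-gene values are not reported here.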

Additional observations from a re-analysis of the deposited data

How the results depend on the processing

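The 5 calls in the family were made with edgeR without TMM, DESeq2, limma-voom, unadjusted p, a minimum of 10 counts in each library and the replicate block, each with 2 higher and 3 lower. A fold change limit of 2 left 3 of 9 tested members called, beside 2297 of all 15277 tested genes. Without a limit 7 of 9 were called, beside 53.3% of all tested genes. With no expression filter 6 were called, since RBL1 then had -0.59. With each library left out in turn, 4 to 7 members were called and no member changed sign. Over all tested genes, 4587 to 5025 were called in these fits. With a limit of 2, 18 of 33 G1/S targets, 11 of 24 G2/M targets and 2 of 7 apoptotic targets were called. The MuvB list then held 1 of 8, the corepressors 1 of 11 and the partners 0 of 3, where 2 had an unadjusted p below 0.05 (edgeR). Without a limit, 8139 genes (53.3%) and 6 of 11 corepressors were called. With the longest transcript as length, E2F1 made up 29.3% (shNC) and 10.8% (shBry) of the E2F level, E2F4 55% and 69.6%, and RBL2 53.8% and 45.3% of the pocket protein level. With the replicate number as a block (replicate block), 4914 genes were called against 4945. Libraries of number 1 deviated together (correlation of 0.508), while those of numbers 2 and 3 did not (-0.31 and -0.114). The library shBry 2 correlated best with shNC 3 (0.545). The deviations were centred within each group of 3, so these values cannot settle whether the numbers pair the libraries. Depth limits E2F2, with at most 20 counts per library.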

Other observations

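Among tested genes averaging 10 CPM or more, those whose pattern over the 6 libraries was nearest to that of E2F1, by the Euclidean distance between log2 CPM centred on each gene's mean, were KHK (distance 0.048), JRK (0.09) and PASK (0.092). KHK had 17.2 ± 1.09 CPM in shNC and 5.87 ± 0.223 CPM in shBry (SD, n = 3), JRK 58.4 ± 3.29 and 21.3 ± 0.499 CPM, and PASK 21.7 ± 0.93 and 7.27 ± 0.24 CPM. The genes nearest to RB1 were PHF3 (distance 0.12), TIA1 (0.13) and ZNF652 (0.14), with log2 fold changes of -0.08, -0.19 and -0.12. Like RB1, these 3 genes had their highest shBry value in replicate 2, with 40.8, 34.4 and 18.6 CPM. The genes nearest to E2F1 and to RB1 were chosen by distance over the same libraries, so their likeness to these members follows from the choice.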
